A study of Mus musculus with 66 samples.

Results

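The genes described here encode the DNA methyltransferases and the enzymes, readers and remodelers of chromatin. A gene was included when its symbol in the platform annotation began with Dnmt, Hdac, Sirt, Kat, Brd, Kmt, Setd, Suv39h, Ezh, Prdm, Prmt, Kdm, Cbx, Smarc or Chd followed by a digit or a letter, and the katanin genes (Katn) and Chdh were left out. The arrays named 111 such genes among 15964 genes in all. Of these, 106 (among 13472 genes) reached a signal of 50 or more on 2 or more arrays of their type. Prdm1, Cbx7, Kdm1b, Kdm8 and Prdm16 did not reach it. Ezhip, which encodes an inhibitor of the Polycomb methyltransferase and not an enzyme, and Prdm16os, an antisense RNA, were included by their symbols only. Testes of BL/6-129 mice were collected at 11 ages, on days 0, 3, 6, 8, 10, 14, 18, 20, 30, 35 and 56 after birth, and no treatment or altered gene was named in the labels. Total RNA of the testis was measured on 3 array types, A, B and C, with 2 numbered samples per day and type, 66 arrays in all. The labels do not say whether the samples of a day came from separate animals or pools, so the p-values measure only the spread between these samples, which may be technical.

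DNA methyltransferases add methyl groups to cytosines, with DNMT1 copying the marks after replication and DNMT3A and DNMT3B, aided by DNMT3L, setting them anew. Histone acetyltransferases, deacetylases, methyltransferases and demethylases write and remove marks on histone tails, chromodomain and bromodomain proteins bind them, and ATP-driven remodelers move nucleosomes. In the testis these systems act in the stem cells, in the silencing of the sex chromosomes during meiosis and in the exchange of histones for protamines in spermatids. The mouse testis at birth holds gonocytes and somatic cells, and the first wave of germ cells then passes through spermatogonia, spermatocytes and spermatids, so that the share of each cell type shifts with age. In such bulk tissue fewer cells of a type and less RNA per cell cannot be told apart.

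Across the probe sets, the samples of a day correlated at 0.931 to 0.98 on array type A, 0.863 to 0.96 on B and 0.834 to 0.951 on C, with the lowest values at day 0. The samples of day 20 were also far apart: 13.9%, 20.3% and 18.4% of the genes on types A, B and C differed at least 2-fold between them, against 1.12%, 3.73% and 5.94% at day 30. The sample numbers did not run the same way on all types. Over the 1463 genes with a probe set on both A and B, the difference of sample 1 minus sample 2 correlated at -0.48 at day 20, -0.29 at day 0 and -0.24 at day 18. Between B and C, over 1691 genes, the same correlation was 0.29, 0.23 and 0.2. On days 3 to 14 both were weaker, at -0.12 to -0.05 between A and B and 0.04 to 0.06 between B and C. At days 0, 18 and 20, genes higher in sample 1 of type A thus tended to be lower there on types B and C. Each chromatin gene below was compared only within its own array type. Markers of the labelled tissue were present: the summed signal of 8 Sertoli cell markers was 3370 and 4150 at day 0, that of 9 spermatocyte markers rose to 6050 and 6450 at day 14, and that of 10 spermatid markers was 48500 and 54800 at day 35 after 354 and 471 at day 20. None of 5 epididymis markers was among the genes past the signal minimum, which would also hold for a gene without a probe set of its own.

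**Figure D1:**
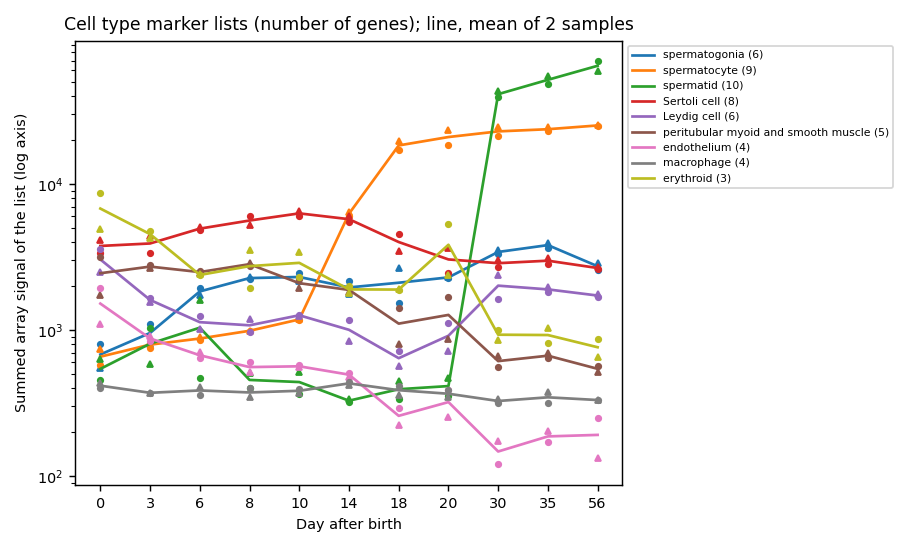
Summed array signal (log axis) of each cell type marker list against day after birth. Points are the 2 samples of a day (circles, sample 1; triangles, sample 2) and lines their mean. The spermatocyte list climbs between day 10 and day 18 and the spermatid list between day 20 and day 30, while the endothelium and smooth muscle lists decline.

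Of the 106 chromatin genes, 68 changed over the 11 days by limma's moderated F-test at a Benjamini-Hochberg adjusted p under 0.05, against a background of 57.0% of all genes. The highest day mean fell on days 0 to 6 in 24 of the 68, on days 8 to 14 in another 24, on days 18 and 20 in 10 and on days 30 to 56 in 10. For all genes that changed, these shares were 34.8%, 24.8%, 13.1% and 27.2%. The lowest day mean fell on days 30 to 56 in 41 of the 68 chromatin genes, or 60.3%, against 51.3% of all genes that changed. The 10 genes with their peak on days 30 to 56 were Brdt, Kdm3a, Hdac11, Brd2, Hdac1, Sirt2, Chd5, Smarca2, Smarcc2 and Hdac5.

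**Figure D2:**
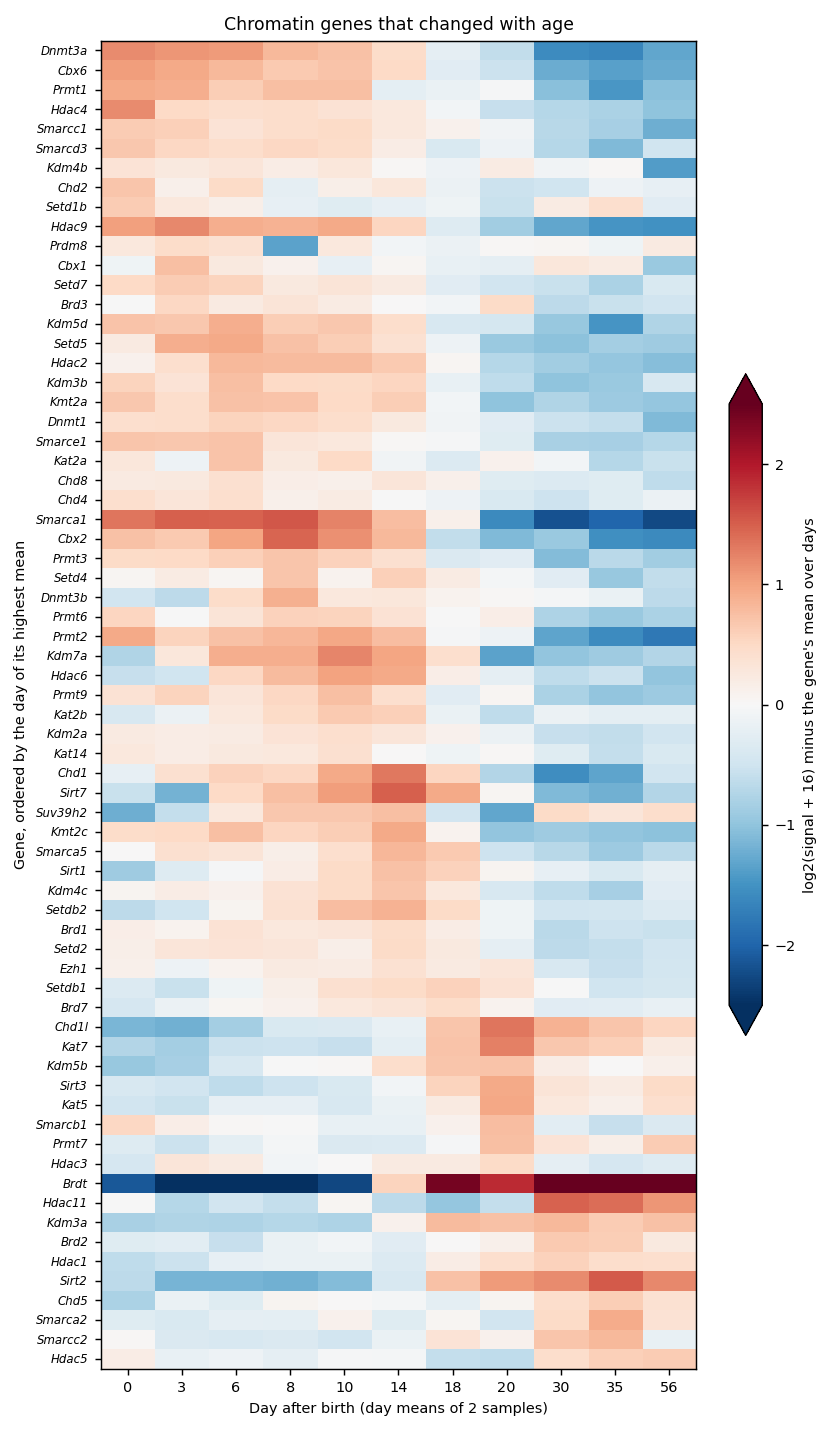
Heat map of the 68 chromatin genes that changed with age, one row per gene ordered by the day of its highest mean, and one column per day. Colour gives log2(signal + 16) minus the gene's mean over days, averaged over 2 samples, and Brdt runs past both ends of the scale. Most rows are red at the left or in the middle and blue from day 30 on, with the late-rising genes at the bottom.

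Between 2 days, a call required both an adjusted p under 0.05 and a 2-fold or larger difference of log2(signal + 16), a scale that understates changes of low signals. Between day 0 and day 8 there were 5 called chromatin genes (background 2.61% of all genes): Hdac6, Suv39h2, Sirt1 and Setdb2 rose and Prdm8 fell. Brdt alone rose between day 8 and day 14 (background 1.42%). The interval from day 14 to day 20 had 25 calls, 6 higher and 19 lower, against a background of 15.8%, or 7.41% and 8.36%. The median change of the chromatin genes in it was -0.32, and that of all genes -0.11. Under scaling to type medians in place of the deposited scaling, the split was 10 higher and 11 lower, against 9.7% and 4.78% of all genes. The medians were then -0.08 over the chromatin genes and 0.09 over all genes. From day 20 to day 35 there were 9 calls, 4 higher and 5 lower (background 10.4%, or 6.06% and 4.30%), in a comparison that shares the day 20 samples with the interval before. Between day 35 and day 56 no gene was called (background 0%), with an unadjusted p under 0.05 in 9 chromatin genes and 1235 genes in all. Under other settings up to 19 of all 13472 genes were called, the most with the sample number as a block. Over the whole span from day 0 to day 56, 8 chromatin genes rose and 21 fell (background 37.0%, or 15.9% and 21.1%), and their median change was -0.5 against -0.21 over all genes.

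The day 20 samples weighed on these counts. Leaving out sample 1 on type A together with sample 2 on types B and C left 14 calls from day 14 to day 20 and 3 from day 20 to day 35, with 10.6% and 6.26% of all genes called. Leaving out the opposite samples gave 29 and 20, with 21.1% and 17.1% of all genes, so that the counts over all genes moved in the same direction. With day 30 as the later day in place of day 20, 4 chromatin genes were higher than at day 14 and 25 lower, against 12.6% and 17% of all genes. The 25 held 15 of the 19 that fell by day 20, and the 4 held 2 of the 6 that rose, without Kat5, Kat7, Prmt7 and Sirt3. Single samples of an interval's own days also decided calls. From day 14 to day 20 the calls of Cbx6, Chd1, Dnmt3a, Hdac2, Hdac9, Kat2b, Kat5, Kdm4c, Kmt2a, Kmt5a, Prmt7, Setd5, Sirt3, Smarca5 and Smarcad1 ended without at least 1 of them. From day 0 to day 8 this held for Prdm8, Setdb2, Sirt1 and Suv39h2, from day 20 to day 35 for all 9 calls but that of Prmt2, and from day 0 to day 56 for Chd5, Hdac1, Hdac2, Kdm5b, Kdm5d, Kmt2a, Kmt2c, Prmt1, Prmt3, Prmt6, Prmt9, Setd5 and Smarcd3.

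**Figure D3:**
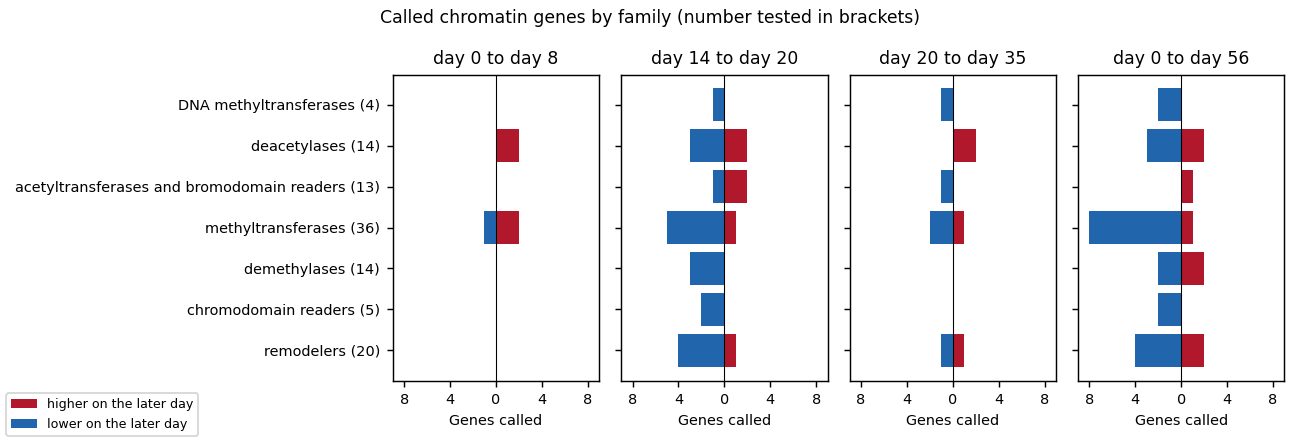
Number of called chromatin genes in each family for 4 comparisons of days, with those higher on the later day to the right of 0 and those lower to the left; the number tested is in brackets. Families follow the symbols, so that the methyltransferases include Ezhip and Prdm16os, which are not enzymes. From day 14 to day 20 falls outnumber rises in every family but the acetyltransferases and bromodomain readers.

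Of the 4 DNA methyltransferase genes, 3 changed with age (background 57.0%), and none of them was called higher in any interval. Dnmt1, the maintenance enzyme, had signals of 573 and 609 at day 0, 684 and 615 at day 6 and 166 and 224 at day 56. Its samples at day 56 were below all samples of days 0 to 20, and the log2 change from day 0 to day 56 was -1.54 ± 0.18 (SE; adjusted p = 2.07e-06). Dnmt3a, a de novo enzyme needed for imprints in male germ cells, declined in the same span from 616 and 558 to 105 and 78.7. It fell in 2 successive intervals, by 1.07 ± 0.26 from day 14 to day 20 (adjusted p = 0.00669) and by 1.03 ± 0.26 from day 20 to day 35 (adjusted p = 0.0127). Scaling each array to its type's median ended both calls.

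Dnmt3b, the other de novo enzyme, had a peak at day 8. Its signals were 65.3 and 82.9 at day 0, 62.7 and 64.4 at day 3, 167 and 146 at day 6 and 204 and 227 at day 8, without overlap between days 3 and 6. The gene changed with age (F-test adjusted p = 0.0264), but the rise from day 0 to day 8 of 1.37 ± 0.37 missed the threshold (adjusted p = 0.0555). At days 30, 35 and 56 sample 1 lay well under sample 2, at 36.5 against 104 on day 56. A second Dnmt3b probe set, also on type B, read 206 and 211 at day 10 and 24.4 and 32.2 at day 56.

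Dnmt3l, the cofactor without catalytic activity that is needed for methylation of transposons in fetal male germ cells, gave a different course on each of its probe sets. The brighter one, on type B, lay between 348 and 665 on every array and did not pass the F-test (adjusted p = 0.935). The other, on type C, read 130 and 147 at day 0, then 8.2 to 24.9 on the 14 arrays of days 3 to 20, then 149 and 143 at day 30, 182 and 172 at day 35 and 191 and 132 at day 56. Fitted on its own, it fell by 2.33 ± 0.34 from day 0 to day 8 (adjusted p = 0.00126, over 22191 probe sets) and rose by 2.78 ± 0.34 from day 20 to day 35 (adjusted p = 1.89e-05). The suffix of this probe set marks possible cross-hybridisation, and a part of other transcripts in its signal was not tested. RefSeq (GRCm38.p6) lists 3 start sites of the gene. Their promoters, from 250 bases before to 50 after the start, are shown on the plus strand because the probe sets part at this gene. CG pairs are in capitals.
Dnmt3l, chr10:78042037-78042336: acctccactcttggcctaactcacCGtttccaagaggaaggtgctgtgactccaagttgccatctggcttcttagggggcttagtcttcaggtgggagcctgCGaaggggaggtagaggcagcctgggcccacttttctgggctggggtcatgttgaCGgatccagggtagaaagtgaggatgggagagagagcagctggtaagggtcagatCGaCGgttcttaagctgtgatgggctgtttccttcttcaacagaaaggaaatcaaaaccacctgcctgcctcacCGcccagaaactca
Dnmt3l, chr10:78049592-78049891: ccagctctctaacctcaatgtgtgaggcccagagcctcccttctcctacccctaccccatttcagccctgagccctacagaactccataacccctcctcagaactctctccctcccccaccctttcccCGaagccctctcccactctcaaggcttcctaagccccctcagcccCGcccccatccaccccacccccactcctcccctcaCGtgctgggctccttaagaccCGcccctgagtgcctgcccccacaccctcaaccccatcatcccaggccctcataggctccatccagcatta
Dnmt3l, chr10:78055085-78055384: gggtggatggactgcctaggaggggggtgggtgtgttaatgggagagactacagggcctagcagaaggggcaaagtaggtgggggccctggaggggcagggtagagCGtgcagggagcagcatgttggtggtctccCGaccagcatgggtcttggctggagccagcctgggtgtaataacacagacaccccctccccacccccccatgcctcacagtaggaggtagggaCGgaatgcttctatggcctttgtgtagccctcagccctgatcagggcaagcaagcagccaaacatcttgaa
They hold 6, 4 and 3 CG pairs, against a median of 26 in the 125 promoters of the 89 chromatin genes found in the table and of 7 in all 32851 promoters. The arrays do not tell which start a probe set reads.

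**Figure D4:**
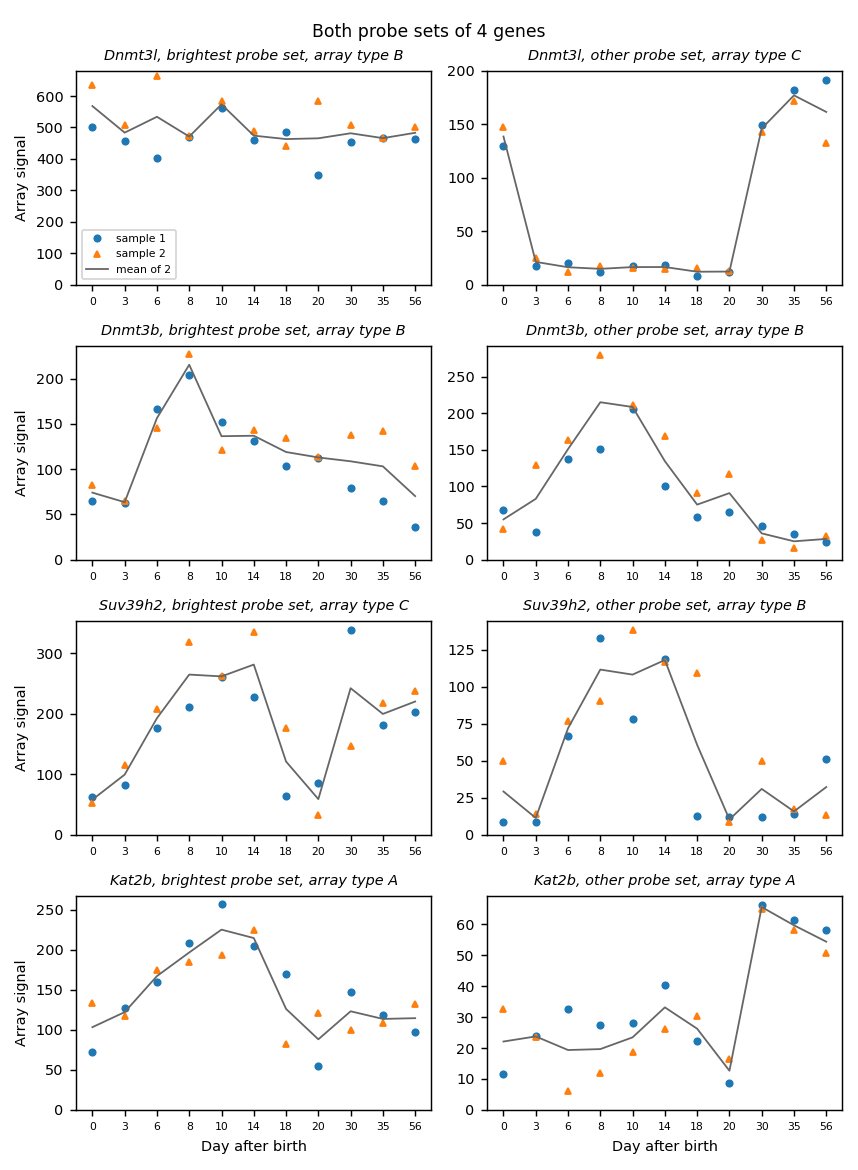
Signal of 2 probe sets for each of Dnmt3l, Dnmt3b, Suv39h2 and Kat2b by day after birth. Points are the 2 samples and lines their mean, and the vertical scale differs between panels. For Dnmt3l the type B probe set is flat, while the type C probe set is high at day 0 and from day 30 on and below 25 in between.

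Among the deacetylases, 12 of 14 changed with age (background 57.0%), and single members moved in opposite directions. Hdac6, an X-linked enzyme that mainly deacetylates tubulin, went from 455 and 502 at day 0 to 1290 and 1210 at day 8, stayed at 1290 to 1510 through day 14 and was 567 and 665 at day 20. It rose by 1.35 ± 0.18 (2.55-fold, adjusted p = 0.00054) and fell by 1.16 ± 0.18 (2.24-fold, adjusted p = 0.000265). The samples of day 8 and of day 14 did not overlap with those of day 0 or day 20. Hdac2, a nuclear class I enzyme, had 729 and 706 at day 14 but 168 and 417 at day 20, with a log2 change of -1.38 ± 0.32 (adjusted p = 0.00493). Its signals stayed at 166 to 254 from day 30 on. Hdac1, its close paralog in the same repressor complexes, rose over the whole course from 189 and 144 at day 0 to 381 and 344 at day 56 (1.06 ± 0.22, adjusted p = 0.000676).

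The class IIa deacetylases, which shuttle between nucleus and cytoplasm, went separate ways. Hdac4 fell from 275 and 331 at day 0 to 62.2 and 47.6 at day 56 (4.51-fold, adjusted p = 9.45e-06). Hdac9 was 286 and 242 at day 0, 172 and 191 at day 14, 66 and 52.1 at day 20 and 33.5 and 30.2 at day 56, a fall of 5.83-fold over the whole span (adjusted p = 2.34e-05). Hdac5, in contrast, had 120 and 188 at day 20 and 379 and 374 at day 35 (1.24 ± 0.25, adjusted p = 0.0025), a call that ended without sample 1 of day 20. Hdac7 did not pass the F-test, with a range of 134 to 311 over the 22 arrays. Hdac11, the single class IV enzyme, switched to a higher level after day 20. Its 16 samples up to day 20 lay between 56.5 and 257, and its 6 samples from day 30 on between 354 and 547. The log2 change from day 20 to day 35 was 2.00 ± 0.51 (3.99-fold, adjusted p = 0.0133).

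The sirtuins are NAD-dependent deacetylases, and 4 of the 5 changed with age (background 57.0%). Sirt1, a nuclear sirtuin, climbed from 170 and 184 at day 0 to 531 and 627 at day 14 and came back to 252 and 261 at day 35. Its rise from day 0 to day 8 was 1.07 ± 0.23 (adjusted p = 0.0167), and that call ended at a pseudocount of 64 and under median scaling. Sirt2, a mainly cytoplasmic sirtuin, was at 87.8 to 113 on days 3 to 10, 154 and 192 at day 14, 641 and 392 at day 20 and 662 and 748 at day 35. Its rise from day 14 to day 20 was 2.75-fold (1.46 ± 0.30, adjusted p = 0.00239). Sirt3, a mitochondrial sirtuin, was called higher in the same interval, from 85.4 and 94.4 to 247 and 158 (1.01 ± 0.24, adjusted p = 0.00619), and it was lower again at day 30, at 137 and 112. Sirt7, found in the nucleolus, peaked at day 14 with 278 and 222 after 51.3 and 45 at day 0. Its day 20 samples lay far apart, at 188 and 29.9, and it was not called in any of the intervals (F-test adjusted p = 0.000756). With day 30 as the later day, at 32 and 23.8, the log2 change from day 14 was -2.6 ± 0.53 (adjusted p = 0.000892).

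Brdt, the testis-specific bromodomain protein that binds acetylated histones in spermatocytes and spermatids, had the widest range of day means of the 106 genes, 6.21 on the log2 scale. Its signals were 67.4 and 81.2 at day 8 and 89.8 and 92.1 at day 10. They reached 778 and 721 at day 14, 3570 and 2060 at day 18 and 3860 and 3510 at day 30. The rise from day 8 to day 14 was 8.49-fold (3.09 ± 0.50, adjusted p = 0.00178), and it was called under all other settings tried, each left-out sample included. The samples of day 20 differed, at 3070 and 1130. The second Brdt probe set, on type B, followed the first with a correlation of 0.96 over the 11 day means, which come from the same days on another array type, and went from 28.8 and 71.6 at day 8 to 140 and 164 at day 14. In that window 6 of 9 spermatocyte markers also rose (background 1.13%). The promoter of Brdt is shown for the gene with this range, on the plus strand of chromosome 5, with its 23 CG pairs in capitals.
Brdt, chr5:107330944-107331243: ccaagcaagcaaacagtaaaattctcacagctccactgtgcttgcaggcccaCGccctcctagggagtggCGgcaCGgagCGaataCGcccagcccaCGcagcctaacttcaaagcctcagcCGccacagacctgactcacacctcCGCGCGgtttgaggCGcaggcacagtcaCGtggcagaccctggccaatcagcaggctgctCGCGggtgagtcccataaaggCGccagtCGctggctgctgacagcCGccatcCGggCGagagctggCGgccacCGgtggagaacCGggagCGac
It is thus close to the median of 26 CG pairs for the chromatin genes.

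The ubiquitous bromodomain genes changed less. Brd2, a BET protein like BRDT, was 54.9 to 128 through day 20 and 154 to 198 on days 30 and 35 (F-test adjusted p = 0.0353). Brd7, a subunit of a SWI/SNF complex, moved between 197 and 394 and was not called in any interval. Brd8 and Brd9 did not pass the F-test (adjusted p = 0.232 and 0.604). Brd3 fell from 1150 and 2130 at day 20 to 734 and 785 at day 35 (-1.03 ± 0.30, adjusted p = 0.0284), with sample 2 of day 20 above all other arrays, and the call ended without that sample.

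Of the acetyltransferases, Kat7 and Kat5 rose from day 14 to day 20 and Kat2b fell. Kat7, the catalytic subunit of the HBO1 complex, was 291 to 381 on days 0 to 10, 434 and 475 at day 14, 658 and 1220 at day 18 and 1600 and 1100 at day 20. The change from day 14 was 1.52 ± 0.23 (2.87-fold, adjusted p = 0.00026), and both samples of each later day stayed above those of day 14. The call ended when the gene's probe sets were averaged. A dim second probe set of Kat7, with signals of 18.9 to 115, did not pass the F-test (adjusted p = 0.842) and correlated at -0.81 with the first over day means. Kat5, the TIP60 enzyme known to act in histone hyperacetylation of spermatids, went from 101 and 102 to 185 and 317 (1.14 ± 0.28, adjusted p = 0.00811), a call that ended without either sample of day 14, without sample 2 of day 20 and at a pseudocount of 64. Kat2b, also called PCAF, went from 205 and 224 to 55.1 and 121 (-1.22 ± 0.33, adjusted p = 0.0151). With a sample left out the change was -1.70 to -0.75, and the call ended without either sample of day 14 or sample 1 of day 20. It also ended at a pseudocount of 64, under quantile normalization and median scaling, and with probe sets averaged. Its dimmer probe set on the same arrays read 8.8 and 16.5 at day 20 and 61.3 and 58.1 at day 35, a rise of 1.41 ± 0.36 (adjusted p = 0.0172) that the brighter one did not show, with 118 and 109 at day 35. Kat2a and Kat14 changed with age (F-test adjusted p = 0.0244 and 0.0353) and Kat6b did not pass the test (adjusted p = 0.335).

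**Figure D5:**
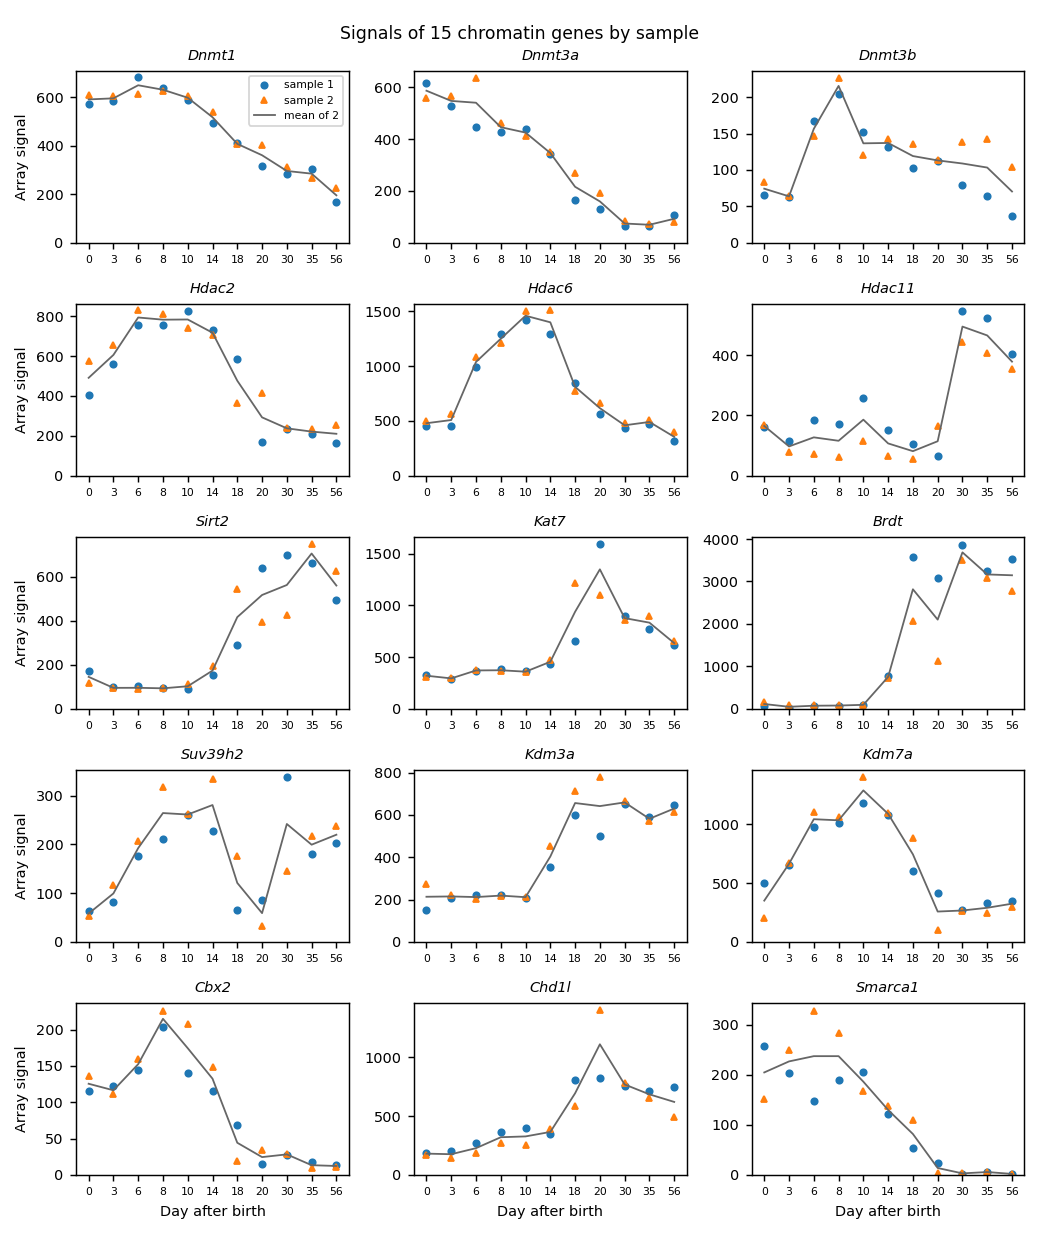
Array signal of 15 chromatin genes by day after birth. Points are the 2 samples of a day, lines their mean, and each panel has its own linear axis from 0. Brdt, Kdm3a, Sirt2, Kat7, Chd1l and Hdac11 climb to later peaks, Suv39h2 has 2 humps with a low at day 20, and the others peak on or before day 10 and decline.

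Suv39h2, a testis-enriched methyltransferase of histone H3 lysine 9 at heterochromatin, rose, fell and rose again. The signals were 62.8 and 53.2 at day 0, 211 and 318 at day 8, 227 and 335 at day 14, 64.8 and 177 at day 18, 85.2 and 32.5 at day 20, 338 and 146 at day 30 and 181 and 218 at day 35. Neither sample of day 20 reached the samples of days 6 to 14 or of days 30 to 56. The 3 changes were 1.90 ± 0.44 from day 0 to day 8 (adjusted p = 0.0249), -2.06 ± 0.44 from day 14 to day 20 (adjusted p = 0.0032) and 1.62 ± 0.44 from day 20 to day 35 (adjusted p = 0.0209). The first and the last call ended when single samples of their own days were left out, and the fall was called in each such fit. On type B the second probe set fell as well, from 119 and 117 at day 14 to 12.2 and 8.5 at day 20 (-2.35 ± 0.61, adjusted p = 0.0129). It did not come back: at day 35 it read 14 and 17.5. The promoter of Suv39h2 is shown because its course reverses and because it holds a full cAMP response element, TGACGTCA, in capitals, which starts 85 bases before the annotated start. It is written 5′ to 3′ on the minus strand of GRCm38.p6.
Suv39h2, chr2:3474937-3475236: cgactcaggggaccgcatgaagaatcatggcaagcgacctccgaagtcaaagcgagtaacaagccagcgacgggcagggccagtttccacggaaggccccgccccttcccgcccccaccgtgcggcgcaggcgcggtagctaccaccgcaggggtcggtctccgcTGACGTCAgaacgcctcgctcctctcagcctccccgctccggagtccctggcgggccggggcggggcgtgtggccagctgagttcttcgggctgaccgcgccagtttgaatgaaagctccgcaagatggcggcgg
That palindrome was searched in all promoters and found in 588 of 32851, or 1.79%, and in 2 of the 125 promoters of chromatin genes, those of Suv39h2 and Prmt9.

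Of the KMT2 group, KMT2A, KMT2C and KMT2D methylate histone H3 lysine 4. Kmt2a was 135 and 196 at day 14 and 22.2 and 70.5 at day 20 (-1.64 ± 0.39, adjusted p = 0.00617), and Kmt2c 561 and 454 against 190 and 73.4 (-1.94 ± 0.37, adjusted p = 0.00133). Both stayed low, at 29.4 and 61.7 for Kmt2a and 122 and 110 for Kmt2c on day 56. Kmt2d and Kmt2e, with day 0 samples as far apart as 914 and 133 for Kmt2d, did not pass the F-test (adjusted p = 0.0918 and 0.144). Kmt5a, the writer of histone H4 lysine 20 monomethylation, was called lower at day 20 on 1 low array, at 40.6 beside 150, and was back at 157 and 150 on day 30. It did not pass the F-test (adjusted p = 0.175).

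The SET domain genes of the Setd group gave 7 of 10 that changed (background 57.0%). Setd5 was 984 and 952 at day 14 and 496 and 294 at day 20 (-1.31 ± 0.36, adjusted p = 0.0153). Setdb2 rose from 141 and 147 at day 0 to 284 and 345 at day 8 (1.04 ± 0.26, adjusted p = 0.032) and was highest at day 14, at 422 and 468. Its relative Setdb1, which methylates histone H3 lysine 9 and silences retroelements, was 230 and 240 at day 0, 298 and 602 at day 14, 483 and 431 at day 18 and 215 and 220 at day 56, and was not called in any interval (F-test adjusted p = 0.0044). Setd2, the histone H3 lysine 36 trimethylase, held 478 to 666 through day 14 and 264 to 336 from day 30 on (F-test adjusted p = 0.000882). By day 30 it was below day 14 by 1.13 ± 0.22 (adjusted p = 0.000665). Of the Polycomb enzymes, Ezh1 went from 136 and 184 at day 14 to 74.1 and 74.8 at day 35 without a call (F-test adjusted p = 0.00797). Ezh2 and the inhibitor gene Ezhip did not pass the F-test (adjusted p = 0.0641 and 0.6).

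Of 8 protein arginine methyltransferase genes, 5 were called lower at day 56 than at day 0 (background 21.1%) and none was called higher. Prmt2, a weak arginine methyltransferase and nuclear receptor coactivator, was 952 and 1480 at day 0, 1090 and 999 at day 14, 413 and 748 at day 20, 177 and 213 at day 35 and 162 and 168 at day 56. Its fall over the whole span was 6.65-fold (-2.73 ± 0.28, adjusted p = 3.17e-07), and that from day 20 to day 35 was 2.72-fold (adjusted p = 0.00168). Of the 9 calls of that interval it was the only one kept both under all other settings of the analysis and without each sample in turn. Prmt1, the main asymmetric arginine methyltransferase, fell from 1230 and 610 to 250 and 168 (3.99-fold, adjusted p = 0.0158), but its samples differed on most days, for example 733 and 181 at day 14. Prmt3, Prmt6 and Prmt9 fell by 1.36, 1.31 and 1.27 over the same span. Prmt7 rose from day 14 to day 20, from 224 and 259 to 373 and 770 (1.10 ± 0.32, adjusted p = 0.0191). Without single samples this change was 0.60 to 1.61, and the call ended without either sample of day 14, without sample 2 of day 20 and at a pseudocount of 64. From day 0 to day 56 the change of Prmt7 was 0.97 ± 0.32 (adjusted p = 0.0176), under the 2-fold minimum of a call. Prmt5, known for symmetric methylation in germ cells, had low signals of 9.6 to 64.8 and did not pass the F-test (adjusted p = 0.117).

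Of the 7 measured Prdm symbols, 1 changed with age (background 57.0%). Prdm8 read 48.4 and 51.3 at day 8 and between 96.7 and 232 on all 20 other arrays. The fall from day 0 was 1.59 ± 0.36 (adjusted p = 0.0225), and at day 10 the signals were 167 and 202 again. Prdm4 did not pass the F-test (adjusted p = 0.0747).

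Of 14 demethylase genes, 8 changed with age (background 57.0%). From day 14 to day 20, 3 were called lower and none higher (background 8.36% and 7.41%), and from day 0 to day 56, 2 were called higher and 2 lower (background 15.9% and 21.1%). Kdm3a, the histone H3 lysine 9 demethylase required for protamine expression, was 152 to 274 on days 0 to 10. It reached 355 and 452 at day 14, 600 and 713 at day 18 and 648 and 613 at day 56. Its rise over the whole span was 2.93-fold (1.55 ± 0.24, adjusted p = 4.39e-05). Kdm5b, a histone H3 lysine 4 demethylase, went from 470 and 355 at day 0 to 1470 and 1180 at day 18 and 813 and 940 at day 56 (1.07 ± 0.22 over the whole span, adjusted p = 0.000564). Kdm7a, a demethylase of histone H3 lysines 9 and 27, had 502 and 199 at day 0, 1180 and 1400 at day 10, 1080 and 1100 at day 14 and 416 and 99 at day 20. That fall was 4.97-fold (-2.31 ± 0.44, adjusted p = 0.0013), and days 30 to 56 stayed at 249 to 351. Kdm3b and Kdm4c also fell from day 14 to day 20, by 1.18 ± 0.25 and 1.09 ± 0.27 (adjusted p = 0.00309 and 0.00756), and Kdm4b was lower at day 56, at 67.3 and 23.4, than at day 0, at 168 and 187.

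Several demethylases showed no change that passed the test. Kdm1a, also called LSD1, stayed at 46.2 to 97.3 (F-test adjusted p = 0.434). Kdm6b was split by sample number: through day 14 its sample 1 read 184 to 665 and its sample 2 only 9.5 to 57.5. Sample 1 was lower afterwards, at 66.6, 104, 50.8 and 102 on days 18, 20, 30 and 35. Sample 2 read 25.2, 35.8, 93 and 77.3 on these days, and both were 12.7 and 12.4 at day 56. With samples so far apart the gene did not pass the F-test (adjusted p = 0.746). The X-linked Kdm5c held 318 to 488 (adjusted p = 0.363), while its Y-linked counterpart Kdm5d went from 170 and 90.8 at day 0 to 26.9 and 45.8 at day 56 (-1.45 ± 0.36, adjusted p = 0.00312). The Kdm5d probe set has a suffix for possible cross-hybridisation, and none without a suffix passed the signal minimum. Its call also ended at a pseudocount of 64. The X-linked Kdm6a did not pass the test on its brightest probe set (adjusted p = 0.571), and a probe set on type A fell from day 14 to day 20 by 1.03 ± 0.33 (adjusted p = 0.0434).

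Chromodomain genes of the Cbx group bind methylated histones in Polycomb complexes or heterochromatin. Cbx2, a Polycomb subunit needed for male sex determination, was 204 and 226 at day 8, 116 and 149 at day 14, 14.6 and 34.3 at day 20 and 13.4 and 11 at day 56. The fall from day 14 to day 20 was 3.77-fold (-1.91 ± 0.34, adjusted p = 0.000721), and all samples of days 0 to 14 were above all later ones. Cbx6, another Polycomb subunit, declined from 320 and 374 at day 0 to 64.3 and 51.2 at day 56 (4.93-fold, adjusted p = 1.06e-06), and 3 further probe sets of the gene were also called lower. The heterochromatin protein Cbx1 changed with age at signals of 15.1 to 89.2 (F-test adjusted p = 0.043). Cbx3 and Cbx5 did not pass the test on their brightest probe sets (adjusted p = 0.667 and 0.187).

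Smarca1, the X-linked ISWI remodeler SNF2L, fell from day 14 to day 20 and from day 0 to day 56. Its signals were 258 and 151 at day 0, 122 and 137 at day 14, 22.9 and 4.4 at day 20 and 1.6 and 2.1 at day 56. The log2 change was -2.37 ± 0.44 from day 14 to day 20 (adjusted p = 0.00108) and -3.58 ± 0.44 over the whole span (adjusted p = 2.92e-06). Since the day 56 signals lie far under the minimum of 50, the size of the latter rests on the pseudocount of 16, and it was -6.13 at a pseudocount of 1 and -1.92 with the gene's probe sets averaged. A second probe set read 148 and 123 at day 14 and 37.2 and 16.1 at day 56 and was called in the same intervals, but the last, the only one without a cross-hybridisation suffix, stayed at 48.3 to 194 and did not pass the F-test (adjusted p = 0.591). Smarca5, the other ISWI ATPase, peaked at day 14 with 753 and 885 and was 462 and 206 at day 20 (-1.35 ± 0.29, adjusted p = 0.00338). In this gene 2 more probe sets were called lower in that interval.

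In the BAF complexes, Smarcc1, Smarce1 and Smarcd3 were lower at day 56 than at day 0. Smarcc1, a core scaffold subunit, went from 409 and 847 to 188 and 118 (3.66-fold, adjusted p = 3.08e-05), and Smarce1 from 117 and 140 to 40.8 and 36.4 (2.63-fold, adjusted p = 4.03e-05). Smarcc2, the paralog of Smarcc1, was 763 and 725 at day 35 but 327 and 409 at day 56, without a call (F-test adjusted p = 0.0233). The ATPase gene Smarca2 rose from 215 and 476 at day 20 to 990 and 779 at day 35 (1.41 ± 0.33, adjusted p = 0.00838). Its alternative in the complex, Smarca4, did not pass the F-test, at 377 to 1020 (adjusted p = 0.067). Smarcb1 was called lower from day 20 to day 35, but sample 1 of day 20, at 1230 beside 509, was above all other arrays, and the call ended without it.

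Among the CHD remodelers, Chd1l, a helicase recruited by poly(ADP-ribose) to damaged DNA, rose and Chd1 fell around day 20. Chd1l was 188 and 173 at day 0, 344 and 386 at day 14, 822 and 1400 at day 20 and 746 and 495 at day 56. Its rise from day 14 to day 20 was 1.52 ± 0.30 (2.87-fold, adjusted p = 0.00167), and a second probe set on type A rose by 1.19 ± 0.34 (adjusted p = 0.0229). Chd1, which binds trimethylated histone H3 lysine 4, peaked at 407 and 445 on day 14 and was 168 and 46.8 at day 20 and 55.8 and 35.1 at day 30 (-2.04 ± 0.47 from day 14 to day 20, adjusted p = 0.00483). A probe set on type A fell with it by 1.09 ± 0.28 (adjusted p = 0.0124), and another on type C correlated at -0.53 with the brightest. Chd5, known for its role in histone removal in spermatids, was higher at day 56, at 273 and 353, than at day 0, at 169 and 95.2 (1.19 ± 0.27, adjusted p = 0.00157). Chd4, the NuRD ATPase, was 1260 and 1700 at day 0 and 726 and 789 at day 30 and was not called between the days compared (F-test adjusted p = 0.000934). Chd8 changed by the F-test (adjusted p = 0.0275) and Chd7 did not pass it (adjusted p = 0.701).

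The 25 genes called from day 14 to day 20 were set beside the cell type markers of the same arrays. In that interval 7.41% of all genes were called higher and 8.36% lower. Of 9 spermatocyte markers 5 rose and 2 fell, with sums of 6050 and 6450 and then 18500 and 23400. Of 8 Sertoli cell markers 2 fell and none rose, and their sums went from 5470 and 6000 to 2450 and 3630. Of 6 spermatogonial markers 1 rose and 3 fell, and their sums went from 2150 and 1760 to 2270 and 2310. The erythroid sums were 2000 and 1790 and then 5290 and 2370, and 1 of 6 Leydig cell and 1 of 5 myoid cell markers fell. The part of these shifts in the chromatin genes was not tested. Under scaling to the median of the type the calls of Cbx6, Dnmt3a, Hdac6, Kat2b, Kdm3b, Kdm4c, Kmt5a and Smarcad1 ended. Cbx2, Kdm7a, Kmt2c, Suv39h2, Sirt2 and Chd1l were called under all other settings and without each numbered sample in turn, and of these 6 Suv39h2 was not called when day 30 took the place of day 20.

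Promoters were compared for the genes called in this interval, with 8 promoters for the 6 that rose and 24 for the 16 that fell and were found in the RefSeq table. The motif TAACNG, the core bound by MYB factors, of which A-MYB acts in spermatocytes, was searched on both strands. It was in 4 of the 8 promoters of genes that rose and in 1 of the 24 of genes that fell. Several promoters of a gene were counted separately, and the difference between these small groups was not tested. Of the genes that rose and held the motif, Kat7 and Sirt3 were not called from day 14 to day 30. Over all 32851 promoters of this length it was in 23.3%, and over the 125 of chromatin genes in 12%. TGACG, the shorter form of the cAMP response element that also lies inside TGACGTCA, was in 5 of the 8, in 7 of the 24, in 20.8% of all and in 31.2% of those of chromatin genes. The stretches around the TAACNG matches in the genes that rose are shown 5′ to 3′ on the gene's own strand of GRCm38.p6 with the match in capitals, which reads CNGTTA where it lies on the opposite strand.
Chd1l, chr3:97610346-97610399, minus strand: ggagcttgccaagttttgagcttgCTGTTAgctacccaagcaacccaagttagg
Kat7, chr11:95310431-95310484, minus strand: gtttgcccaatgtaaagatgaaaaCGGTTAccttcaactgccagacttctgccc
Sirt2, chr7:28766700-28766753, plus strand: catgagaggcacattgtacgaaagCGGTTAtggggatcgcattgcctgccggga
Sirt3, chr7:140882294-140882347, minus strand: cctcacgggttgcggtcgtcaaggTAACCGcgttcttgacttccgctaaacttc
The matches lie 185, 214, 28 and 14 bases before the annotated start. A match of these letters is a description of the sequence and shows no binding.

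Chromosome X carries 5 of the measured genes, Hdac6, Kdm5c, Kdm6a, Smarca1 and Ezhip, which lie in the chromosome that is silenced in pachytene spermatocytes. Hdac6 and Smarca1 fell from day 14 to day 20 (background 8.36%), and the other 3 were not called on their brightest probe set. The type A probe set of Kdm6a described above also fell in this interval. The call of Hdac6 ended under median scaling and that of Smarca1 with suffixed probe sets left out. A part of the silencing in these falls was not tested. The change was -0.96 ± 0.58 for Kdm6a (adjusted p = 0.268), 0.23 for Kdm5c and 0.05 for Ezhip.

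A list of 75 genes outside the symbol rule held other chromatin genes. It also held the spermatocyte marker Hspa2 and the meiosis genes Meioc and Ythdc2. Of the 75 genes, 64 were measured. Of these, 48 changed with age (background 57.0%). From day 14 to day 20, 2 rose, Uhrf1 and Hspa2, and 9 fell (background 7.41% and 8.36%). Among the 9 was Tet1, a methylcytosine oxidase, with means of 64.4 and then 4.55 (-1.96, adjusted p = 0.00175). The lymphoid-specific helicase Hells fell from a mean of 569 to 124 (-2.27, adjusted p = 0.00239). The Polycomb subunit Suz12 also fell, with 204 and then 66.4 (-1.68, adjusted p = 0.0177). The day 20 samples of Hells and Suz12 lay far apart, with standard deviations of 100 and 66. The day 20 mean of Tet1 was far under the signal minimum, so the size of its change rests on the pseudocount. Fits without single samples are not given for these genes. Hells had risen before, from a mean of 104 at day 0 to 535 at day 8 (2.17). Cdyl, a chromodomain gene known from spermatids, rose from a mean of 42.7 at day 20 to 1240 at day 35 (4.41), with 4 listed genes rising and 2 falling in that interval (background 6.06% and 4.30%).

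Agreement between probe sets limits how far single genes can be read. More than 1 probe set passed the signal minimum in 56 chromatin genes, with 98 further probe sets beside the brightest. Their day means correlated with those of the brightest at a median of 0.55, and 20 correlated below 0, the lowest being that of Kat7. Of 44 calls between days in these genes, another probe set was called in the same direction in 12 and in the opposite direction in none.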

How the data were processed

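Total testis RNA of 22 numbered samples (11 days, 2 each) was measured on 3 array types. The deposited values are linear signal intensities, brought by the authors to a mean of 125 per array, per the labels. The mean without 2% of probe sets at each end was 125 to 125.1 on every array, and the software is not given in the sources used here.

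Probe sets naming 1 gene in the platform annotation were used, and of 240 for chromatin genes 204 passed the signal minimum of 50 on 2 arrays. A gene's brightest probe set was analysed as log2(signal + 16), separately by array type, with limma 3.58.1 in R 4.3.3 (lmFit on 11 day means, eBayes with a variance trend, 11 residual degrees of freedom). Two-sided p-values were adjusted over 13472 genes by the Benjamini-Hochberg method, and the code was tested on simulated data. Single probe sets were fitted the same way, adjusted over 22191.

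The genes, lists and tests were chosen with earlier results of these data known. Named genes were, by rule, the 6 largest called rises and falls of each interval, the widest range of each family, genes with textbook roles, genes whose probe sets disagree and X- or Y-linked genes. Alternatives were pseudocounts of 1 and 64, no minimum and one of 125, quantile and median scaling, mean probe sets, suffixed probe sets left out, the sample number as a block, and each sample left out. After the data were seen, day 30 in place of day 20 and crossed day 20 numbers were added. Promoters are from RefSeq, with symbols matched to the table.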

Additional observations from a re-analysis of the deposited data

How the results depend on the processing

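Directions of the calls between days held under the settings tried for single genes with 1 exception: Brd3 from day 20 to day 35 was 0.59 with suffixed probe sets left out, which puts another probe set in its place. From day 0 to day 8 the 5 calls became 8 under quantile normalization, 3 under median scaling and 1 to 7 when each sample was left out, with 1 left without either sample of day 8. From day 14 to day 20 the 25 calls became 16 at a pseudocount of 64 and 16 to 26 with a sample left out (16 without sample 1 of day 14). From day 20 to day 35 the 9 calls became 2 without sample 1 of day 35, 5 without sample 2 of it and up to 12 otherwise. With the day 20 numbers crossed, these 2 intervals gave 14 and 3 calls, or 29 and 20. Left-out samples gave 56 to 72 genes by the F-test, 25 to 32 from day 0 to day 56, and 1 (Brdt) from day 8 to day 14 throughout; each leaves a day with 1 sample, assumed to vary like the others. The causes were not tested. Calls kept under all settings but those 2 on day 20 (crossed numbers, and day 30 in its place), and without each sample in turn, numbered 1 of 5, 1 of 1, 6 of 25, 1 of 9 and 13 of 29 in the 5 intervals with calls.

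The main fit did not treat the samples as paired by number, so a difference by number within a type was not modelled there. The deviations of same-numbered samples of different days correlated over 0.1 in 28, 34 and 23 of 55 pairs of days on types A, B and C. They correlated below -0.1 in 2, 0 and 0 pairs, and the medians were 0.1, 0.13 and 0.07. By the mean over the other days, samples were closer to their own number at 10, 11 and 10 of 11 days, a hint from the data. The 3′/5′ Gapdh ratio of type B on days 3 to 20 was 0.851 to 0.944 in sample 1 and 0.674 to 0.718 in sample 2. Type C ran the same way on these days, at 0.805 to 1 in sample 1 and 0.654 to 0.805 in sample 2. Type A ran the opposite way, at 0.672 to 0.765 in sample 1 and 0.795 to 0.991 in sample 2. With the replicate block, 73 genes passed the F-test, and 7, 1, 27, 11 and 31 calls were made from day 0 to 8, 8 to 14, 14 to 20, 20 to 35 and 0 to 56. With 2 arrays per day and no detection calls, signals near 50 and below carry little order.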
